A study of Mus musculus with 9 samples.

Results

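The 10 genes Nes, Vim, Nefl, Nefm, Ina, Tubb3, Map2, Stmn2, Dcx and Gap43 encode nestin, vimentin and proteins of the neuronal cytoskeleton. They were taken from 19938 genes measured by a probe set with exactly 1 gene symbol in the platform annotation, and all 10 were found. Where a gene had several such probe sets, the brightest by its mean over the 9 arrays was used, which applied only to Ina. Skin-derived precursor cells (SKPs) are cells of mouse skin that grow in culture as floating spheres. Such spherical colonies at primary passage gave the 4 SKP arrays, numbered 3, 4, 5 and 6. They were grown from skin of mice at postnatal day 4, whose strain the labels do not name. Back skin cells from Sox2:EGFP mice at postnatal day 4 gave the 5 sorted arrays, numbered 2, 16, 17, 18 and 20. In these mice EGFP fluorescence reports activity of Sox2, and the dissociated cells were sorted as EGFP-positive and CD34-negative straight into an RNA preservative. Each array is a separate preparation. Effects of culture, of the sort and of which cells were taken cannot be told apart, since the groups differ in all of them.

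Nestin and vimentin are intermediate filament proteins that assemble together. Nestin is a marker of neural and other precursor cells and vimentin the main filament protein of mesenchymal cells, and both have been used to characterise SKPs in culture. The neurofilament light and medium chains (Nefl and Nefm) and alpha-internexin (Ina) form the filaments of axons. Beta-III tubulin (Tubb3), microtubule-associated protein 2 (Map2), doublecortin (Dcx) and stathmin-2 (Stmn2) belong to or regulate neuronal microtubules, and the membrane protein encoded by Gap43 is abundant in growth cones. Several of these genes are also active in cells other than neurons, such as Gap43 in Schwann cells.

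Values are log2 RMA levels, 1 per probe set and array, so a difference of 1 is a 2-fold difference. No detection calls were used here. As a guide to background, the 95th percentile over 1178 olfactory and vomeronasal receptor genes, a class with little expected use in skin, lay between 5.90 and 6.23 on the 9 arrays, and is called the receptor-gene level below. Sox2 lay between 5.78 and 6.41 on the SKP arrays and between 8.24 and 9.25 on the sorted arrays. On the second principal component sorted arrays 2 and 20 were at -32.66 and -53.27, away from the rest of their group (19.09 to 27.77). Cd34, whose protein was sorted against, was at 10.19 and 10.27 on these arrays whereas the remaining sorted arrays had 7.31 to 7.82, so results that rest on them are given with and without both. Differences are SKP minus sorted, tested with limma over all genes, and a gene is called where its Benjamini-Hochberg adjusted p is under 0.05.

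Nefl and Gap43 were higher in SKPs, Stmn2 was lower, and the other 7 genes were not called. Called genes thus made up 3 of 10, against 37.0% of all genes tested. By direction, 2 of the 10 genes were higher, against 20.2% of all genes, and 1 was lower, against 16.9%. The groups did not overlap in 3 of the 10 genes, the same 3, against 34.0% of all genes. The median difference over the 10 genes was 0.13 on the log2 scale, and over all genes it was 0.07. Without sorted arrays 2 and 20 the counts of the 10 genes were again 2 higher and 1 lower, while over all genes 25.4% were higher and 21.1% lower, 46.5% in all. The share of called genes was thus not above that of the whole array, and the results concern single genes rather than a common shift. In bulk samples such as these, fewer cells of a type and less RNA per cell cannot be told apart.

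**Figure D1:**
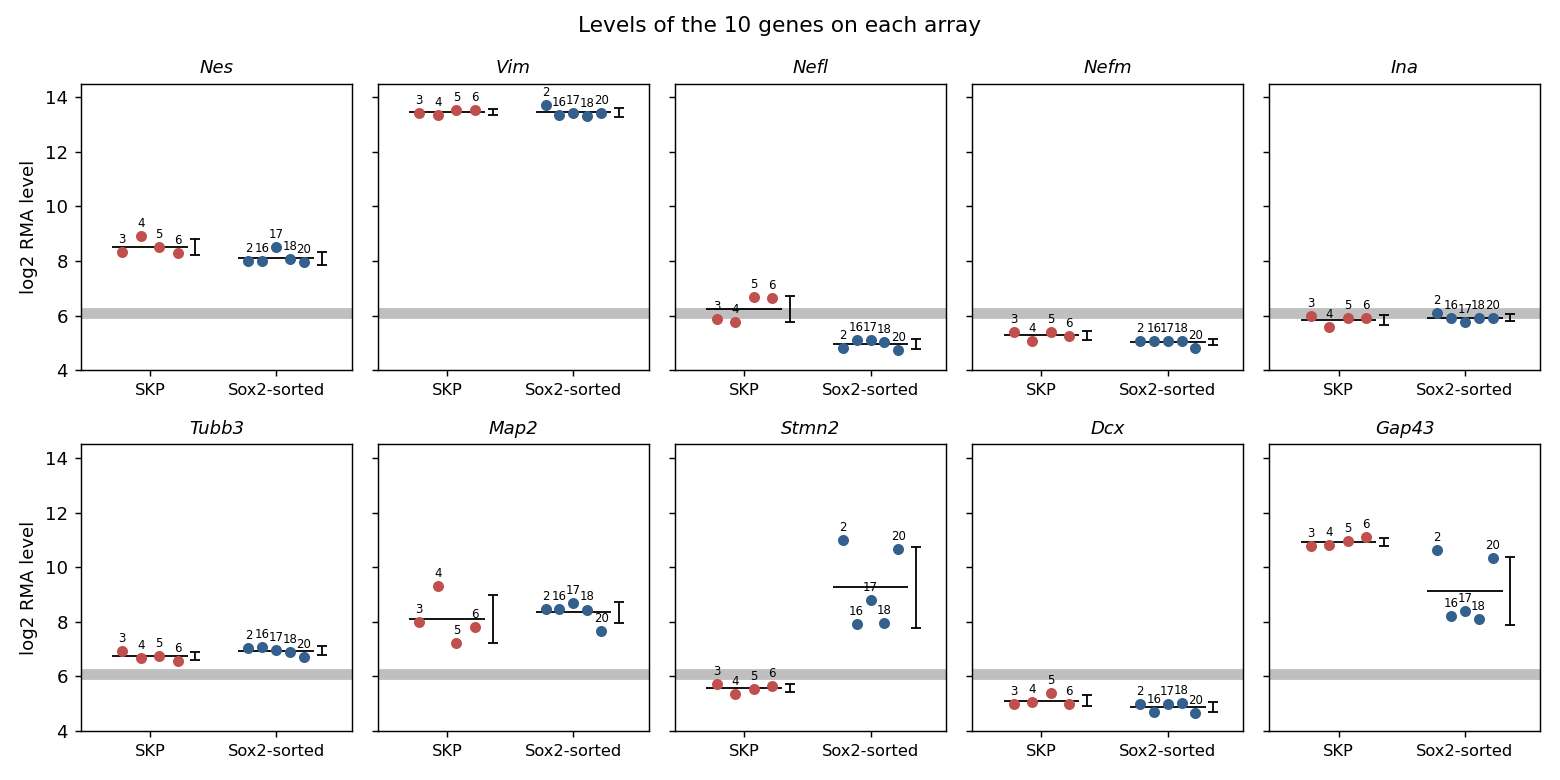
Log2 RMA level (vertical axis) of each of the 10 genes on the 4 SKP arrays (red) and the 5 Sox2-sorted arrays (blue), with replicate numbers above the points, the group mean as a line and its SD as a bar. The grey band spans the receptor-gene levels of the 9 arrays (5.90 to 6.23). Stmn2 lies under the band on all 4 SKP arrays and above it on all 5 sorted arrays, and Nefm and Dcx lie under it throughout.

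Nestin did not pass the test. Nes was at 8.34, 8.91, 8.51 and 8.28 on SKP replicates 3, 4, 5 and 6, and at 7.99, 7.99, 8.52, 8.07 and 7.95 on sorted arrays 2, 16, 17, 18 and 20. The groups overlapped only through sorted array 17, which lay above 3 of the 4 SKP arrays. The mean was 8.51 ± 0.28 in SKPs (SD, n = 4) and 8.11 ± 0.24 in sorted cells (n = 5), a difference of 0.41 (SE 0.16, limma adjusted p = 0.0685). Its 95% confidence interval, not adjusted over genes, ran from 0.06 to 0.76 and so left out a 2-fold difference. Without sorted array 17 the difference was 0.51 and was called (limma adjusted p = 0.0185). It was also called after quantile normalization (0.44, limma adjusted p = 0.0398) and after median centring (0.48, limma adjusted p = 0.0380), but not without sorted arrays 2 and 20 (0.32, limma adjusted p = 0.192).

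Vimentin was at nearly equal levels in both groups. Vim was at 13.41, 13.34, 13.54 and 13.53 on SKP replicates 3 to 6, and at 13.72, 13.35, 13.42, 13.31 and 13.41 on the sorted arrays in the order above. All 9 values lay within 0.41 on the log2 scale, and the ranges overlapped almost fully. The difference was 0.01 (SE 0.10, 95% confidence interval -0.20 to 0.23, limma adjusted p = 0.923), and its sign turned after quantile normalization (-0.08). Leaving out sorted arrays 2 and 20 gave a difference of 0.10 (limma adjusted p = 0.364).

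Among the neurofilament genes only Nefl was called. Nefl was at 5.88, 5.76, 6.69 and 6.63 on SKP replicates 3, 4, 5 and 6, and at 4.82, 5.09, 5.11, 5.03 and 4.73 on sorted arrays 2, 16, 17, 18 and 20. Every SKP array lay above every sorted array, but only SKP replicates 5 and 6 exceeded the receptor-gene level of their own array. The mean was 6.24 ± 0.49 in SKPs (SD, n = 4) and 4.96 ± 0.17 in sorted cells (n = 5). The difference was 1.28 (SE 0.20), or 2.44-fold, with a limma adjusted p of 6.85e-04. As all sorted values were at background level, the fold is approximate. The SD of Nefl within SKPs was larger than that of 98.5% of all genes. SKP replicates 5 and 6 were also the SKP arrays with the most signal from immune cell markers, with a mean over 10 marker genes of 8.29 and 7.86, against 7.48 and 6.92 on replicates 3 and 4. The part of those cells in the Nefl values was not tested.

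Nefm, which lies beside Nefl with 1 annotated gene between them in RefSeq's GRCm38.p6 annotation, was under the receptor-gene level on all 9 arrays. It was at 5.40, 5.06, 5.41 and 5.27 on SKP replicates 3, 4, 5 and 6, against 5.07 on 4 of the 5 sorted arrays and 4.83 on sorted array 20. Those 4 sorted arrays held 1 identical deposited value. The difference was 0.26 (SE 0.10, limma adjusted p = 0.0549). It was called without SKP replicate 4 (0.34, limma adjusted p = 0.0189), and in 3 other alternatives, but at this level no difference in expression is claimed. Ina was at 5.98, 5.58, 5.92 and 5.92 on the SKP arrays and between 5.76 and 6.10 on the sorted arrays. Its difference was -0.07 (SE 0.10, limma adjusted p = 0.618), with 4 arrays again at 1 identical value. Only sorted arrays 2 and 20 exceeded the receptor-gene level of their own array. A further Ina probe set, which was dimmer, averaged 5.06 ± 0.30 in SKPs (SD, n = 4) and 5.24 ± 0.09 in sorted cells (n = 5) and was not called either (limma adjusted p = 0.320 over all probe sets).

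**Figure D2:**
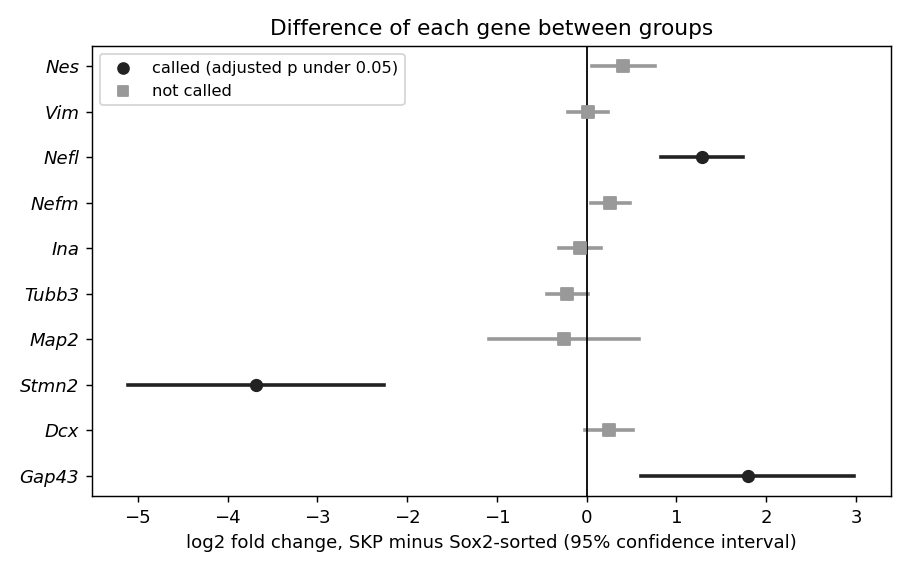
Difference of each of the 10 genes between the groups (horizontal axis, log2 fold change, SKP minus Sox2-sorted), with its 95% confidence interval from limma. Black circles are called genes (adjusted p under 0.05) and grey squares are not; Stmn2 is at -3.68, Nefl at 1.28 and Gap43 at 1.79, and the interval of Map2 is the widest among the genes not called.

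Stmn2 showed the largest difference of the 10 genes. Stathmin-2 binds tubulin and destabilises microtubules in growing neurites. Stmn2 was at 5.73, 5.37, 5.55 and 5.66 on SKP replicates 3, 4, 5 and 6, all under the receptor-gene level. It was at 11.01, 7.90, 8.79, 7.95 and 10.66 on sorted arrays 2, 16, 17, 18 and 20, all above it. The groups did not overlap, and within the sorted group replicates 2 and 20 were the highest. The mean was 5.58 ± 0.16 in SKPs (SD, n = 4) and 9.26 ± 1.48 in sorted cells (n = 5). The difference was -3.68 (SE 0.64), or 12.8-fold lower in SKPs, with a limma adjusted p of 0.00123. Without sorted arrays 2 and 20 it was 6.21-fold lower (limma adjusted p = 1.22e-05), so the size of the fold, but not the call, depended on these arrays. As SKPs were at background level, the folds are approximate. The SD of Stmn2 among the sorted arrays was larger than that of 99.6% of all genes.

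The other microtubule genes were not called. Tubb3, the beta tubulin used as a marker of young neurons, was at 6.92, 6.67, 6.76 and 6.57 on SKP replicates 3, 4, 5 and 6, and at 7.05, 7.09, 6.98, 6.91 and 6.70 on sorted arrays 2, 16, 17, 18 and 20. These ranges overlapped, and every array was above the receptor-gene level. The difference was -0.21 (SE 0.10, 95% confidence interval -0.45 to 0.02, limma adjusted p = 0.140). Without sorted array 20 it was -0.28 and was called (limma adjusted p = 0.0371), and with array weights it was -0.29 (limma adjusted p = 0.0161). Dcx, which stabilises microtubules in migrating neurons, was under the receptor-gene level on all 9 arrays. It lay between 4.99 and 5.40 in SKPs and between 4.66 and 5.01 in sorted cells (difference 0.25, SE 0.12, limma adjusted p = 0.139).

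Map2 varied more among the SKP preparations than between the groups. It was at 8.0, 9.32, 7.23 and 7.81 on SKP replicates 3, 4, 5 and 6, and at 8.47, 8.46, 8.68, 8.45 and 7.65 on sorted arrays 2, 16, 17, 18 and 20. SKP replicates 4 and 5 held the highest and the lowest value of all 9 arrays. The difference was -0.25 (SE 0.37, 95% confidence interval -1.09 to 0.58, limma adjusted p = 0.635), so that a 2-fold difference is within the interval. Its sign turned without SKP replicate 5 (0.04). The SD within SKPs was 0.88, larger than that of 99.8% of all genes. The immune marker mean, at 7.48, 6.92, 8.29 and 7.86 on SKP replicates 3, 4, 5 and 6, was lowest where Map2 was highest and highest where Map2 was lowest. Within the sorted group, array 20 held both the lowest Map2 value and the lowest immune marker mean (5.87, others 6.11 to 6.25). The part of immune cells in the Map2 values was not tested.

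Gap43 was higher in SKPs than on any sorted array, but by very different amounts. It was at 10.78, 10.82, 10.97 and 11.12 on SKP replicates 3, 4, 5 and 6, and at 10.62, 8.22, 8.38, 8.11 and 10.32 on sorted arrays 2, 16, 17, 18 and 20. Sorted arrays 2 and 20 thus lay close under the SKP range, and the other 3 sorted arrays far below it. The mean was 10.92 ± 0.15 in SKPs (SD, n = 4) and 9.13 ± 1.23 in sorted cells (n = 5). The difference was 1.79 (SE 0.53), or 3.47-fold, with a limma adjusted p of 0.0230. The call was lost without SKP replicate 3, 5 or 6 or sorted array 16 or 17, where the limma adjusted p was over the threshold and reached 0.0619. Without sorted arrays 2 and 20 Gap43 was 6.44-fold higher (limma adjusted p = 2.44e-07).

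Stmn2 and Gap43 were thus both highest within the sorted group on replicates 2 and 20, although they differed in opposite directions between SKPs and sorted cells. Several marker lists also separated these arrays from the other 3. The mean over 10 fibroblast markers was 11.29 to 11.46 in SKPs, against 11.37 and 11.40 on sorted arrays 2 and 20 and 10.62 to 10.68 on the remaining sorted arrays. Over 7 genes of dividing cells it was 8.91 to 9.35 in SKPs, against 9.69 and 9.42 on sorted arrays 2 and 20 and 7.71 to 8.22 on the rest of that group. Over 12 keratinocyte markers it was 6.39 to 6.74 in SKPs, against 10.24 and 11.79 on these arrays and 9.30 to 9.48 on the rest. Over 15 dermal papilla markers it was 6.57 to 6.75 in SKPs, and on sorted arrays 2 and 20 it was lower, at 10.56 and 10.02, than on the rest (11.71 to 11.91). Over 9 endothelial markers it was 6.28 to 6.61 in SKPs, against 7.06 and 7.54 on these arrays and 6.29 to 6.39 on the rest. Over 11 skin sensory neuron markers it was 5.52 to 5.88 in SKPs. On sorted arrays 2 and 20 it was 6.29 and 6.22, and on the rest 5.89 to 5.93, all near the receptor-gene level. That split was weighted by Ntrk2 and Tac1. Ntrk2 was at 8.73 and 8.10 on sorted arrays 2 and 20, against 6.82 to 7.02 on the rest. Tac1 was at 5.87 on both, against 3.52 to 4.27, and under the receptor-gene level on every sorted array. The part of any of these cell types in the Stmn2 and Gap43 values was not tested.

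Genes with the most similar profile were sought for the 3 of the 10 genes with the widest range, as the smallest root mean square difference between levels centred on their mean over the 9 arrays. For Stmn2 these were Rgs5, a regulator of G-protein signalling and a marker of pericytes (0.29 on the log2 scale), Adamts18, a secreted protease (0.41), and Moxd1 (0.49). Rgs5 was at 5.44 to 5.70 in SKPs, and at 10.89, 8.02, 9.54, 8.35 and 10.57 on sorted arrays 2, 16, 17, 18 and 20. Over 11 pericyte and smooth muscle markers, Rgs5 among them, the mean was 9.23, 9.03, 9.40, 9.11 and 9.67 on those arrays. In that mean sorted array 17 lay above sorted array 2. For Gap43 they were Fn1, which encodes fibronectin (0.22), Jpt2 (0.24) and Tac1, which encodes the precursor of substance P (0.25). Fn1 was at 12.79 to 12.93 in SKPs, and at 12.17, 10.30, 10.70, 10.32 and 12.49 on the same sorted arrays. For Map2 they were Rassf2 (0.20), Gm10590 (0.28) and Abca9 (0.30). Like Map2, all 3 were higher on SKP replicate 4 than on the other SKP arrays. The measure describes likeness over these 9 arrays only, which share the split between the groups and between the sorted arrays.

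**Figure D3:**
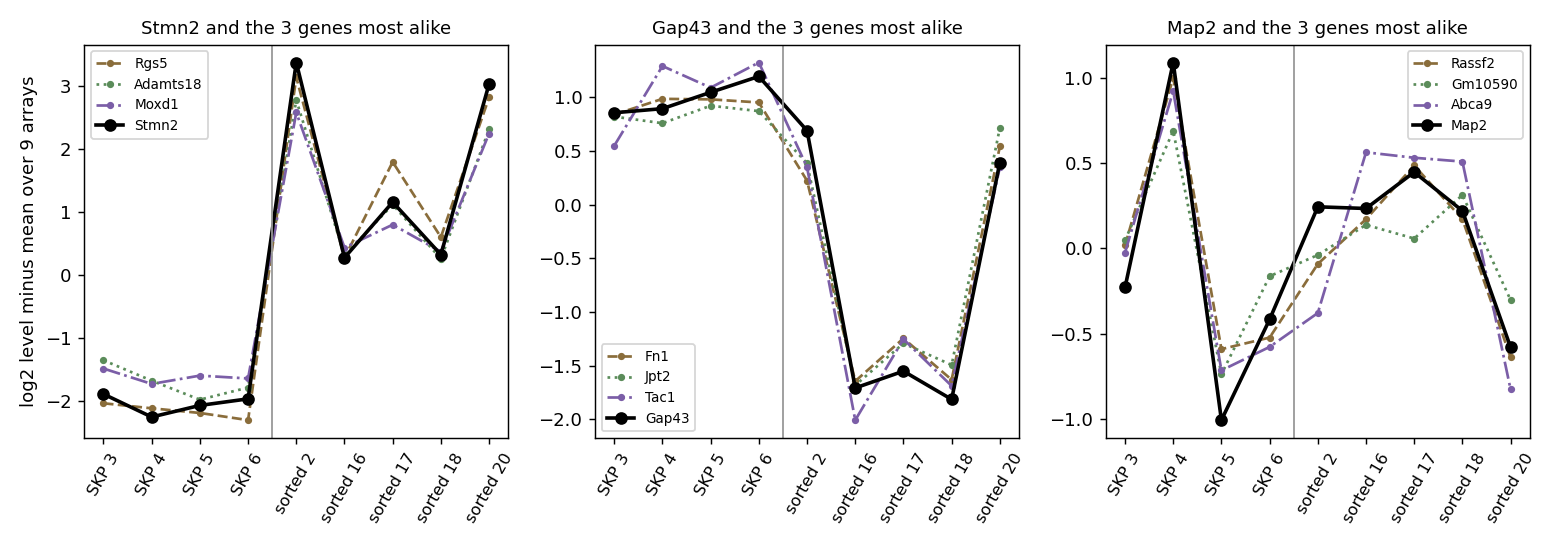
Level of Stmn2, Gap43 and Map2 (black) and of the 3 genes most like each of them, as log2 level minus the gene's own mean over the 9 arrays (vertical axis), on the 4 SKP arrays and the 5 sorted arrays (horizontal axis, divided by a grey line). Stmn2 and Rgs5 both peak on sorted arrays 2 and 20, Gap43 and Fn1 are lowest on sorted arrays 16, 17 and 18, and Map2 and Rassf2 peak on SKP replicate 4.

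Other intermediate filament genes and their linkers were partly lower in SKPs. Of 13 such genes 4 were lower and 0 higher, with a median difference of -0.16 on the log2 scale. The share called was 30.8%, against 37.0% of all genes. Desmin (Des), the filament protein of muscle, was at 6.13 ± 0.30 in SKPs (SD, n = 4) and 7.45 ± 0.38 in sorted cells (n = 5), 2.49-fold lower (limma adjusted p = 6.32e-04). Des was above the receptor-gene level on only 2 of the 4 SKP arrays, so its fold is approximate. Synemin (Synm), which assembles with desmin and vimentin, was 2.43-fold lower (limma adjusted p = 4.20e-05). The linker Dst (2.02-fold) and syncoilin (Sync, 1.25-fold) were lower as well. The neurofilament heavy chain gene Nefh had a difference of 0.19 and Prph, the filament gene of peripheral neurons, one of -0.16, and neither was called (limma adjusted p = 0.213 and 0.285). The glial filament gene Gfap, with a difference of -0.21, was not called either. It was above the receptor-gene level on 0 SKP arrays and 1 sorted array, so these values cannot show whether its expression differs. Without sorted arrays 2 and 20, where the share called was also larger over all genes (46.5%, against 37.0% with all arrays), 2 of the 13 were higher and 4 lower.

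The 10 measured tubulin genes had a median difference of -0.10, and 2 of them were called higher and 2 lower in SKPs. The share called was 40%, near the 37.0% of all genes. Tubb6, a broadly used beta tubulin, was at 11.03 ± 0.32 in SKPs (SD, n = 4) and 9.74 ± 0.42 in sorted cells (n = 5), 2.45-fold higher (limma adjusted p = 0.00117), and Tubg1, which nucleates microtubules, was 1.62-fold higher. Tubb4a (1.82-fold) and Tuba8 (1.63-fold) were lower. The fold of Tubb4a is approximate, as it was above the receptor-gene level on only 2 of the 4 SKP arrays. Without sorted arrays 2 and 20, 4 tubulin genes were higher and 2 lower, where 46.5% of all genes were called. In the list of microtubule and growth cone genes 10 of 25 were lower and 4 higher, with a median of -0.17, and without sorted arrays 2 and 20 the counts were 12 and 5, beside the same larger share over all genes. With all arrays 56.0% of this list was called, against 37.0% of all genes. Marcks, a membrane protein that binds actin, was 2.35-fold lower (limma adjusted p = 1.10e-05). Map6, which stabilises microtubules against cold, was 2.09-fold lower (limma adjusted p = 0.00163). Crmp1, a collapsin response mediator, was 2.27-fold higher (limma adjusted p = 1.92e-05), and Fez1, an adaptor of axonal transport, 2.09-fold higher (limma adjusted p = 3.28e-04). Crmp1 was above the receptor-gene level on only 3 of the 5 sorted arrays, so its fold is approximate. Stmn1, Stmn3 and Stmn4, the relatives of Stmn2 on the array, had differences of -0.25, -0.12 and -0.01 and were not called (limma adjusted p = 0.634, 0.478 and 0.923). Stmn1, which is broadly used in dividing cells, was at 10.24 to 10.61 in SKPs, and at 11.36, 9.95, 10.37, 10.05 and 11.82 on sorted arrays 2, 16, 17, 18 and 20, so it was also highest on sorted arrays 2 and 20 within that group.

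**Figure D4:**
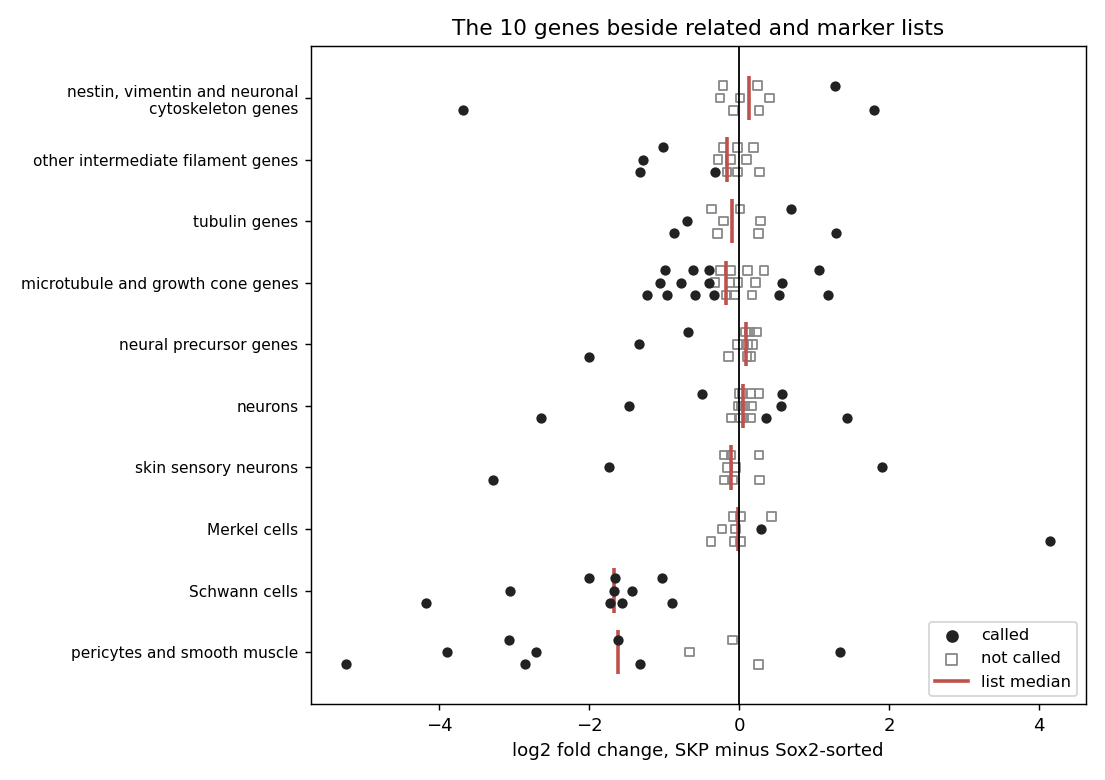
Log2 fold change (horizontal axis, SKP minus Sox2-sorted) of every measured gene in the 10-gene set, in 4 related lists and in 5 marker lists (vertical axis). Filled circles are called genes, open squares are not called, and the red line is the list median, at 0.13 for the 10 genes, -1.67 for Schwann cell markers and -1.61 for pericyte and smooth muscle markers.

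Of 12 neural precursor genes 3 were lower in SKPs and 0 higher, with a median difference of 0.10 on the log2 scale. The share called was 25.0%, against 37.0% of all genes. The 3 lower genes were Fabp7 (3.99-fold), Prom1 (2.52-fold, or 1.61-fold without sorted arrays 2 and 20) and Msi1 (1.61-fold). Fabp7 and Prom1 were under the receptor-gene level on all 4 SKP arrays, so their folds are approximate. The mean over the list was 6.06 to 6.34 in SKPs and 6.40 to 6.56 in sorted cells, without overlap. This mean was weighted by the 3 lower genes, as the median difference was 0.10 and 9 of the 12 genes were not called. Fabp7 is also among the Schwann cell markers below. Above the receptor-gene level were 5 of the 12 genes on all SKP arrays and 7 on all sorted arrays. Pax6, Neurog1 and Neurod1 were under the receptor-gene level on all 9 arrays. The 19 neuron markers had a median difference of 0.06, and 4 were called higher and 3 lower in SKPs. The share called was 36.8%, against 37.0% of all genes. One of the 4, Elavl4, was under the receptor-gene level on all 9 arrays, so no difference in expression is claimed for it. Eno2, a glycolytic enzyme abundant in neurons, was 2.72-fold higher (limma adjusted p = 2.01e-05). The adhesion gene L1cam, which Schwann cells also use, was 6.28-fold lower (limma adjusted p = 5.89e-06), and Scg3 was about 2.78-fold lower (limma adjusted p = 4.16e-04), with all SKP values at background level. On all SKP arrays 10 of the 19 markers were above the receptor-gene level, and on all sorted arrays 6 were. Snap25, a defining neuronal gene, and Elavl4 were among 5 markers that were under the receptor-gene level on all 9 arrays. The mean over the neuron list was 6.08 to 6.31 in SKPs and 6.15 to 6.34 in sorted cells, near the receptor-gene level, and these ranges overlapped.

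The median over 11 markers of skin sensory neurons was -0.11, with 1 higher and 2 lower, or 1 and 3 without sorted arrays 2 and 20. The share called on all arrays was 27.3%, against 37.0% of all genes. Ntrk3, a neurotrophin receptor, was 9.76-fold lower (limma adjusted p = 4.93e-07). Tac1 was 3.77-fold higher (limma adjusted p = 0.0128), or 6.55-fold without sorted arrays 2 and 20. These folds are approximate, since Ntrk3 on all 4 SKP arrays and Tac1 on all 5 sorted arrays were under the receptor-gene level. Ntrk2, the other gene called lower (3.32-fold, or 2.20-fold without sorted arrays 2 and 20), was also under that level on every SKP array. Of the 11 markers 2 were above the receptor-gene level on all SKP arrays and 4 on all sorted arrays. The sodium channel genes Scn9a, Scn10a and Scn11a, together with Trpv1 and Pou4f1, were under the receptor-gene level on every array. The median over 10 Merkel cell markers was -0.02, with 2 higher and 0 lower, led by the peptide gene Cck (17.8-fold, limma adjusted p = 5.62e-06). Cck was above the receptor-gene level on only 4 of the 5 sorted arrays, so its fold is approximate. Called genes made up 20.0% of the Merkel cell list, again against 37.0% of all genes. Without sorted arrays 2 and 20 the counts were 2 higher and 1 lower, as the ion channel gene Piezo2 was then called lower (-1.02, limma adjusted p = 7.64e-05), against -0.07 with all arrays. Of 10 Schwann cell markers 10 were lower, with a median of -1.67 and Erbb3, the neuregulin receptor, the most strongly (18.2-fold). The mean over these markers was 6.90 to 7.29 in SKPs and 8.73 to 9.43 in sorted cells. Among pericyte and smooth muscle markers 7 of 11 were lower and 1 higher, with a median of -1.61, including Myh11 (37.9-fold) and Rgs5 (14.9-fold, or 8.32-fold without sorted arrays 2 and 20, approximate as SKPs were at background level). Without these arrays 8 of the 11 were lower and 1 higher. The fold of Myh11 is approximate too, as it was above the receptor-gene level on only 3 of the 4 SKP arrays.

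The remaining marker lists are given as counts, beside a share of 37.0% called over all genes, or 46.5% without sorted arrays 2 and 20. Of 8 melanocyte markers 6 were lower and 1 higher, of 15 dermal papilla markers 15 were lower, and of 12 keratinocyte markers 12 were lower. Of 10 fibroblast markers 4 were higher and 1 lower, and without sorted arrays 2 and 20 these counts were 6 and 3. Of 10 skeletal muscle genes 5 were higher and 0 lower, or 5 and 1 without these arrays. Of 9 endothelial markers 0 were higher and 2 lower, or 2 and 2 without these arrays, where Cdh5 and Emcn were called higher. Emcn was above the receptor-gene level on only 1 SKP array and 1 sorted array, so no difference in expression is claimed for it. The counts of the melanocyte, dermal papilla, keratinocyte and immune lists were the same without sorted arrays 2 and 20. The median over 10 immune cell markers was 1.48, and 8 of them were higher and 0 lower. Of 7 genes of dividing cells 1 was higher and 0 lower, and without sorted arrays 2 and 20 the number higher was 6.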

How the data were processed

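The authors deposited a log2 level from RMA for every probe set on every array. Per the submitters' processing notes, RMA, Affymetrix Expression Console and limma were used, and versions and settings are not given in the sources used here. Of 35556 probe sets, the annotation gives 1 gene symbol for 21789, several for 1621 and none for 12146. The probe set with the highest mean stood for its gene. SKP minus sorted was tested with limma 3.58.1 in R 4.3.3 (lmFit and eBayes, two-sided, no covariates) over 19938 genes, and the calculation was tested on simulated data. Precision is limited by the number of arrays.

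The 10 genes, the related and marker lists and the alternatives were chosen with earlier results of these data known. The naming rule took, of each related list, the 2 called genes highest and lowest in fold change, and of each marker list the brightest gene and the 2 called genes with the largest change. Marker lists of cells remote from neural tissue are given as counts. The rule also took Cacna1b, Pmp22, Cdh19 and Acta2, whose differences are not given. Other named genes were chosen after their values were seen, as were the receptor genes used as a guide to background. These other genes were Gfap, Prph, Nefh, Stmn1, Stmn3, Stmn4, Sync, Dst, Msi1, Ntrk2, Cdh5, Emcn and the markers under the receptor-gene level. Alternatives were quantile normalization, median centring, a filter on dim genes, the mean over probe sets, every probe set on its own, array weights, trend with robust fitting, and leaving out each array. Leaving out both sorted arrays 2 and 20 and an exact permutation test were added after the data were seen. Coordinates are left out, since the sources used here do not name the genome build behind the deposited values; RefSeq's GRCm38.p6 table was used only for names and neighbouring genes. Plots used Python 3.11.15 with matplotlib 3.10.9.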

Additional observations from a re-analysis of the deposited data

Results flagged for a closer look

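In 12 of 160 combinations of a gene or list mean with a group, 1 array lay far from the others of its group by Dixon's criterion, where chance gives about 1 in 20. Of the 10 genes, 5 had such an array. Nes was at 8.52 on sorted array 17, against 7.95 to 8.07 on the other sorted arrays. Vim was at 13.72 on sorted array 2, against 13.31 to 13.42. Nefm was at 4.83 on sorted array 20, against 5.07 on the others, which held 1 identical value. Map2 was at 7.65 on sorted array 20, against 8.45 to 8.68. Ina was at 5.58 on SKP replicate 4, against 5.92 to 5.98 on the other SKP arrays.

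Among the other genes and lists, Fez1 was at 8.31 on SKP replicate 6 (others 8.62 to 8.66), Dsp at 7.27 on SKP replicate 4 (others 6.33 to 6.45) and Acta2 at 10.10 on SKP replicate 5 (others 9.69 to 9.74). Dsc3 was at 11.99 (others 10.42 to 10.76) and Cd68 at 7.04 (others 7.80 to 8.08) on sorted array 20. The melanocyte marker mean was at 8.89 on sorted array 20 (others 8.18 to 8.38), and the keratinocyte marker mean at 6.39 on SKP replicate 5 (others 6.69 to 6.74).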

How the results depend on the processing

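Stmn2 stayed lower and called in all 17 alternatives with an adjusted p (-4.02 to -2.63), and Nefl higher and called in all 16 that held it (1.14 to 1.44). Gap43 stayed higher in 17 (1.54 to 2.69) and called in 12. The number of the 10 genes called higher was 4 after median centring, 1 with dim genes left out, which removed 4 of the 10 from the test, and 1 to 3 without 1 array. The number lower was 2 with array weights and 1 to 2 without 1 array. Array weights raised the number of all genes higher to 6145, against 4020 as deposited, and without 1 array it was 3396 to 4568; the cause was not tested. Signs turned only in genes that were not called: Vim with quantile normalization (-0.076) and between -0.018 and 0.084 without 1 array, Ina with array weights (0.0069) and between -0.12 and 0.02 without 1 array, and Map2 between -0.66 and 0.035 without 1 array. Without both sorted arrays 2 and 20 the counts of the 10 genes stayed at 2 higher and 1 lower, while the share called over all genes was 46.5%, against 37.0% with all arrays. Exact two-sided permutation over the 126 splits gave p = 0.0159, the smallest it allows, for Nefl, Stmn2 and Gap43. Groups that do not overlap, as in these genes, always give this p, so it adds nothing beyond that separation. No paired analysis was possible because the groups share no replicate number. Levels near background limit Nefl, Nefm, Ina, Dcx and the SKP values of Stmn2.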
